A study of Mus musculus with 8 samples.

Results

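Tetraspanins are small proteins that pass through the membrane several times and gather integrins, other adhesion molecules, proteases and receptors into membrane patches, and some of them also sort cargo into endosomes and released vesicles. In microglia, the macrophages that live in the brain, the members named here include proteins found on most cells (Cd9, Cd63, Cd81, Cd82, Cd151, Tspan3, Tspan4), a pair largely restricted to blood-derived cells (Cd37, Cd53) and Tspan7, best known from neurons. The set was defined by name as 10 genes, and a gene was taken where a probe set carried its symbol and no other. That gave 9 measured members of 19938 genes, each with 1 probe set. Tspan7 had no such probe set and is not analysed here.

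The microglia came from Swiss Webster mice aged 17 weeks and labelled female, with 4 samples labelled MFP2 knockout and 4 controls labelled wild type. MFP2 is the multifunctional protein-2 of peroxisomal beta-oxidation, encoded by Hsd17b4, and the comparison asks how the microglial transcriptome differs without it. The cells were sorted from whole brain by high CD11b and intermediate CD45, and the sources used here do not say which cells of the animal carry the deletion or that each replicate is a separate animal, so the tests rest on the spread among samples, part of which may be technical. Each sample gave 1 array of log2 expression values, and the 4 arrays per group limit the precision. Hsd17b4 lay between 7.82 and 9.09 in control arrays and between 4.76 and 7.20 in knockout arrays, the highest of which was knockout 2.

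All 11 measured microglial identity genes had a mean above 6.24, the median of the gene means, although 6 of them were lower in knockouts. That bar does not set microglia apart from other cells. All 8 measured monocyte and neutrophil markers and 7 of 10 border macrophage markers also passed it. In earlier results of these data control 3 and knockout 2 lay between the groups, and control 1 went against its labelled sex, with Xist at 6.80 against 10.82 or more in the other controls. The changes of Cd63, Cd9 and Cd53 are given with and without control 3 and knockout 2. Both arrays were picked for lying between the groups in these same data. Leaving them out tends to enlarge a change, so a larger change without them is no independent support.

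Among the members Cd63 and Cd9 were higher in MFP2 knockout microglia, Cd53 was lower, and the other 6 did not pass the test. A gene is called here when its limma p, adjusted by Benjamini-Hochberg over all 19938 genes, was under 0.05. The 3 called members of 9 stand beside 9.55% of all genes called, of which 5.38% were higher and 4.17% lower. Among the 3090 genes with a mean at or above that of the dimmest member (Tspan4, at 8.31), 26.7% were called, 13.9% higher and 12.8% lower. For genes this bright a count of 3 in 9 is close to the background. The median log2 change of the 9 members was -0.0062, against -0.02 over all genes. These are bulk samples, so a change in the share of cells that carry a transcript and a change in RNA per cell cannot be told apart.

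Cd63, a tetraspanin of late endosomes, lysosomes and exosomes that is brought to lysosomes by the adaptor AP-3, stood at 10.74, 10.74, 11.17 and 10.64 in control 1 to control 4. In knockout 1 to knockout 4 it stood at 11.61, 11.67, 11.67 and 11.90. The groups did not overlap, and control 3 was the control array nearest to the knockouts. The mean rose from 10.82 ± 0.24 (SD, n = 4) to 11.72 ± 0.13, a log2 change of 0.89 ± 0.12 (SE) or 1.86-fold, with a limma adjusted p of 0.000784. Without control 3 and knockout 2 the log2 change was 1.02, and without control 1 as well it was 1.04. Cd63 was called under all 18 alternatives tried, with adjusted p between 0.000195 and 0.00545.

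Cd9, a surface tetraspanin that organises integrins and the membrane-bound growth factor encoded by Hbegf and that limits the fusion of macrophages, stood at 10.36, 10.37, 10.51 and 10.20 in the controls. Its values in the knockouts were 11.01, 10.82, 11.27 and 11.29. No knockout array reached down to a control array, and knockout 2 was the lowest of the knockouts and control 3 the highest of the controls. The mean rose from 10.36 ± 0.12 (SD, n = 4) to 11.10 ± 0.23, a log2 change of 0.74 ± 0.12 (SE) or 1.67-fold, with a limma adjusted p of 0.00200. Without control 3 and knockout 2 the log2 change was 0.88, and without control 1 as well it was 0.90. Cd9 was also called under all 18 alternatives, with adjusted p between 0.000931 and 0.00972. Over all genes, 1.82% had a larger change in either direction than Cd63 and 2.96% a larger one than Cd9.

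**Figure D1:**
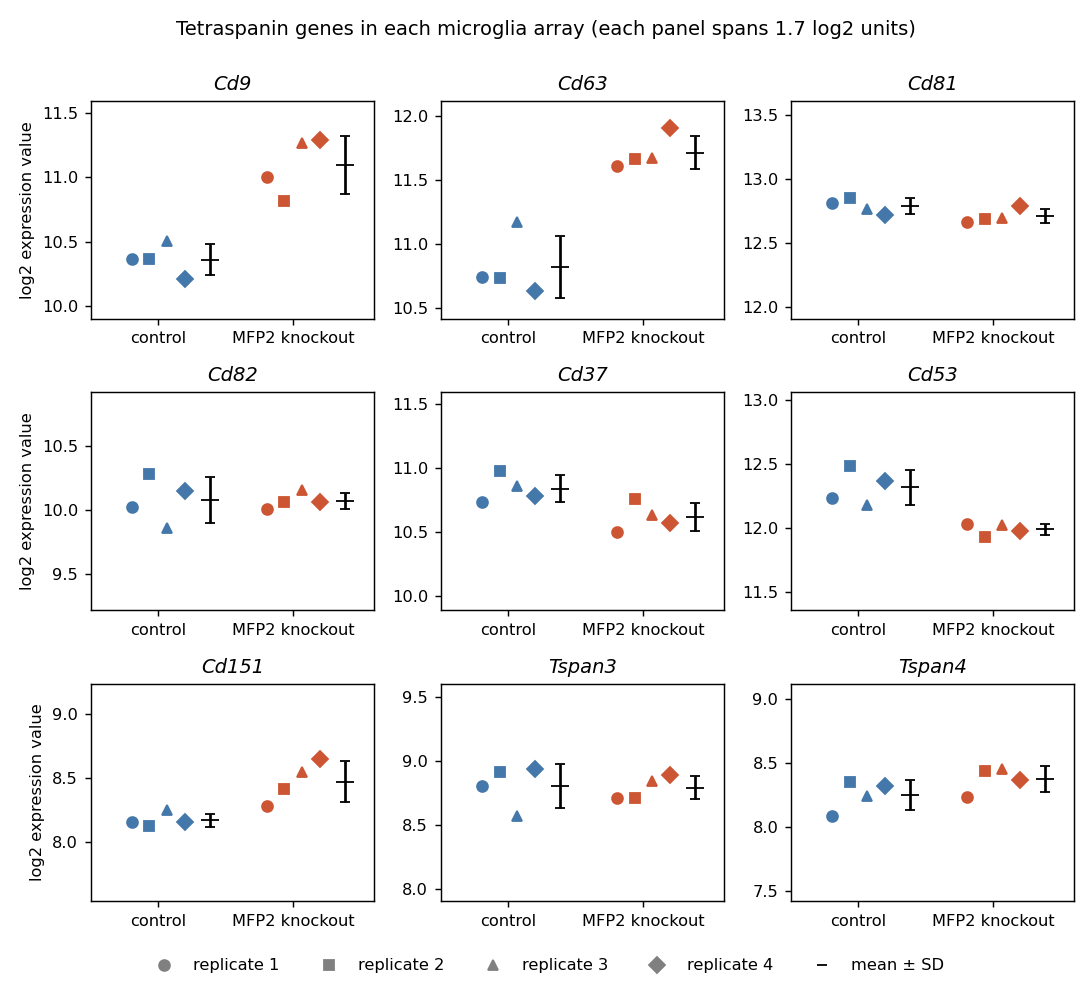
Log2 expression value (vertical axis, each panel spanning the same number of log2 units) of the 9 measured members in each control and MFP2 knockout array; point shapes give the replicate number, and the bars at the side are the mean ± SD of 4 arrays. All knockout points lie above all control points for Cd9, Cd63 and Cd151 and below them for Cd53, and the groups overlap for the other 5 genes.

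The RefSeq windows of the members that rose, Cd9 and Cd63, and of the leukocyte members, Cd53 and Cd37, are shown for the letters around their listed start sites. They come from RefSeq on GRCm38.p6, run 5′ to 3′ along the gene's strand and hold 250 bases before the start site and 50 from it on. Capitals mark matches on either strand to any of 5 motifs. The first, GAGGAAGT, is the core of sites for PU.1, a factor of the myeloid lineage. The others searched were the E-box CACGTG, which reads the same on both strands, the GC box with the letters GGGCGG, the AP-1 site with the letters TGANTCA and the TATA box with the letters TATAAA. The motifs were chosen after the windows had been seen, and no match overlapped another in these 4 windows. The start sites of Cd9 and Cd53 are the 5′ ends of their annotated genes, but that of Cd37 lies 501 bases and that of Cd63 13114 bases inside the annotated gene. Cd63 has no other window in this table, and whether microglia use that start was not tested.
Cd9, chr6:125494711-125495010, minus strand: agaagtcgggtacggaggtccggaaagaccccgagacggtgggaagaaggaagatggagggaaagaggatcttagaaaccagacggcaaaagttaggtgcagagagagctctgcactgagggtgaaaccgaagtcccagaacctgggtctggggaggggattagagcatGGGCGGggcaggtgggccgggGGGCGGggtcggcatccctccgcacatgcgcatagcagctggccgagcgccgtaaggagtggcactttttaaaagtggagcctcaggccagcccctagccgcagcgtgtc
Cd63, chr10:128909095-128909394, plus strand: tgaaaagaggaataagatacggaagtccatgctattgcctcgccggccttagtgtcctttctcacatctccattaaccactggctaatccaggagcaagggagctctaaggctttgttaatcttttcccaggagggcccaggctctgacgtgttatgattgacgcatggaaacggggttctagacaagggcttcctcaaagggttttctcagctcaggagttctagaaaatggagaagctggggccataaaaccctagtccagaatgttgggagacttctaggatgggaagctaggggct
Cd53, chr3:106790100-106790399, minus strand: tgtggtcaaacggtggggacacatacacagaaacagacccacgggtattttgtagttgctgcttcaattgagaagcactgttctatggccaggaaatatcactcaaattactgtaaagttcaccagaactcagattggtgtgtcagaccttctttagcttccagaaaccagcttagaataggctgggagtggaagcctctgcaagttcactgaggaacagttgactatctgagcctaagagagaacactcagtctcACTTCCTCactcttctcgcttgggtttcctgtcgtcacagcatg
Cd37, chr7:45238790-45239089, minus strand: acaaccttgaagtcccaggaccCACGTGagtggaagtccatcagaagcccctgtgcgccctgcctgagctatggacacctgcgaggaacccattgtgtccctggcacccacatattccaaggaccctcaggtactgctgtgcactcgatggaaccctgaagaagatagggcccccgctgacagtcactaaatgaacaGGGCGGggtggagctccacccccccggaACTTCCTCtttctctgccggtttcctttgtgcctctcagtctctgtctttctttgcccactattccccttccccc

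Cd9 held 2 GC boxes, at 81 to 76 and 60 to 55 bases before the start site, and the one window of Cd63, inside its gene, held none of the 5 motifs. GC content was 61.3% for Cd9 and 49.3% for Cd63, against a median of 52.7% over all windows. The GC box occurs in 35.7% of 32851 RefSeq windows of this length. The leukocyte pair both held GAGGAAGT on the reverse strand, in Cd53 at bases 7 to 14 counted from the start site and in Cd37 at 25 to 18 bases before it. That motif occurs in 3.20% of all windows, and among the 15 windows of the 10 members it was also in 1 window of Cd82. Cd37 also held a GC box and an E-box, the latter found in 7.15% of all windows, and no window shown held the AP-1 or TATA letters (7.81% and 13.6% of all windows). A match of letters is a description and shows no binding, and its absence shows only that the letters are not in that window.

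Cd53, a tetraspanin of leukocytes that associates with integrins and with the phosphatase CD45, was lower in knockouts. Its values were 12.23, 12.49, 12.18 and 12.37 in the controls and 12.03, 11.93, 12.02 and 11.98 in the knockouts. The knockout arrays lay close together and all below the controls, of which control 3 was again the nearest. The mean fell from 12.32 ± 0.14 (SD, n = 4) to 11.99 ± 0.04, a log2 change of -0.33 ± 0.09 (SE) with a limma adjusted p of 0.0407. That call was near the threshold. It was kept in 7 of 18 alternatives and lost in 11, among them every array left out other than control 3 (adjusted p = 0.0617 to 0.107), arrays centred on their medians (0.0649) and the exclusion of control 3 and knockout 2 (0.0686). The log2 change stayed negative in all 18, from -0.48 after quantile normalization to -0.27 without control 2.

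Cd37, which acts in antigen presentation and restrains signalling in lymphocytes and myeloid cells, stood at 10.74, 10.98, 10.86 and 10.78 in the controls and at 10.51, 10.76, 10.64 and 10.58 in the knockouts. All knockout arrays were below the control mean, but knockout 2 lay above control 1, so the groups overlapped. The log2 change was -0.22 ± 0.09 (SE), with a 95% interval of -0.42 to -0.02 and a limma adjusted p of 0.184. Within each array the log2 value of Cd37 minus that of Cd53 was -1.47 ± 0.11 (SD, n = 4) in controls and -1.37 ± 0.14 in knockouts. The 2 genes did not differ in their change beyond that spread, with a difference of 0.10 ± 0.09 (SE, exact two-sided permutation p = 0.343, adjusted p = 0.343 over 3 pairs).

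Cd151, which binds the laminin-binding integrins, had no overlap between groups but did not pass the test. Its values were 8.15, 8.13, 8.25 and 8.15 in the controls and 8.28, 8.41, 8.55 and 8.64 in the knockouts. The knockout arrays were spread more widely than the controls (SD 0.16 and 0.05), and only 0.03 log2 units separated knockout 1 from control 3. The log2 change was 0.30 ± 0.10 (SE), with a limma adjusted p of 0.0723, and it passed the threshold without knockout 1 (0.0338) and when dim genes were left out (0.0485). Counting Cd151, groups did not overlap for 4 of 9 members, against 14.0% of all genes and 34.3% of the genes at least as bright as the dimmest member.

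Cd81, the closest relative of Cd9 in this set, which forms complexes with the B-cell co-receptor and shares the partners Igsf8 and Ptgfrn with Cd9, was not called. It stood at 12.82, 12.86, 12.77 and 12.72 in the controls and at 12.67, 12.69, 12.69 and 12.79 in the knockouts, and knockout 4 lay among the controls. The log2 change was -0.08 ± 0.08 (SE), with a 95% interval of -0.25 to 0.10 and a limma adjusted p of 0.669. The log2 value of Cd9 minus that of Cd81 was -2.43 ± 0.11 (SD, n = 4) in controls and -1.61 ± 0.20 in knockouts, and each of the 4 knockout arrays lay above each control. That is a difference of 0.82 ± 0.12 (SE), with an exact two-sided permutation p of 0.0286, the smallest that 4 against 4 can give, and 0.0857 adjusted over 3 pairs, which did not pass 0.05. Without control 3 and knockout 2 the difference was 0.96, where 3 arrays against 3 cannot give an exact permutation p below 0.10 (adjusted p = 0.30). For Cd9 minus Cd63 the difference was -0.15 ± 0.11 (SE), the groups overlapped, and the exact permutation p was 0.314 (adjusted 0.343).

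**Figure D2:**
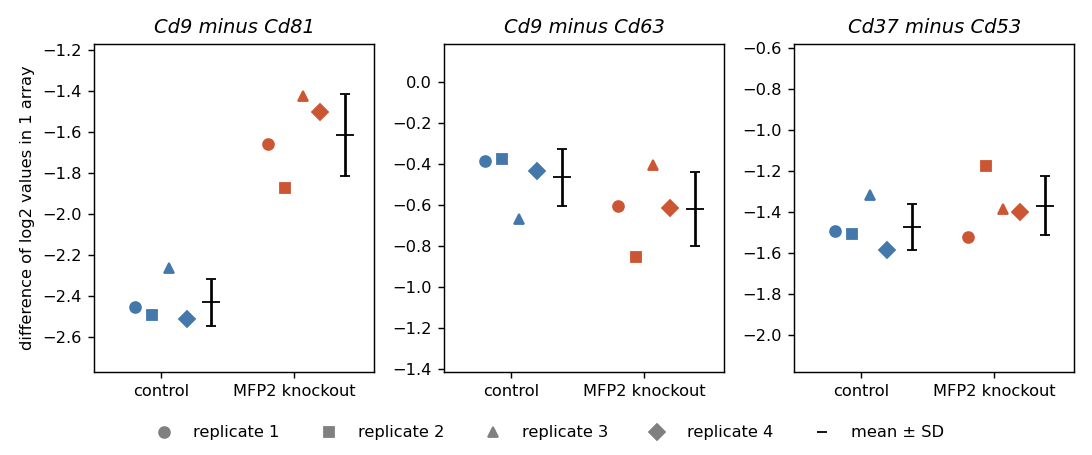
Difference of the log2 values of 2 tetraspanin genes within the same array (vertical axis, log2 units, all panels spanning the same range) for control and MFP2 knockout samples; shapes give the replicate number and side bars the mean ± SD of 4 arrays. Cd9 minus Cd81 moves from -2.43 in controls to -1.61 in knockouts with no overlap, while Cd9 minus Cd63 and Cd37 minus Cd53 overlap between the groups.

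The remaining members showed small changes in either direction. Cd82, known as a metastasis suppressor, lay between 9.86 and 10.28 in controls and between 10.01 and 10.16 in knockouts. Its log2 change was -0.0062 ± 0.10 (SE), with a 95% interval of -0.23 to 0.21, and turned positive after cyclic loess scaling (0.03). Tspan3 lay between 8.57 and 8.94 in controls and between 8.71 and 8.89 in knockouts, with a log2 change of -0.02 (95% interval -0.24 to 0.20) that also turned positive after cyclic loess scaling (0.012). Tspan4, which marks migrasomes, the vesicles left on the trailing fibres of moving cells, lay between 8.08 and 8.35 in controls and between 8.23 and 8.45 in knockouts. Its log2 change was 0.12 ± 0.09 (SE), with a 95% interval of -0.08 to 0.33. For these 3 genes the knockout range lay largely inside or across the control range, and the limma adjusted p was 0.983, 0.955 and 0.524.

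The arrays were not ordered alike across the members. Control 3 was the control nearest to the knockouts for all 4 members without overlap, and it was the lowest control for Cd82 and Tspan3. Knockout 1 was the lowest knockout array for 7 of 9 members, sharing that place with knockout 2 for Tspan3. Knockout 4 was the highest for 5 of 9, among them Cd9, Cd63 and Cd151.

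Of the wider family, 21 other genes for tetraspanins, 1 was higher, 3 were lower and 17 were not called, or 4.76% and 14.3% called higher and lower against 5.38% and 4.17% of all genes. Among genes at least as bright as the dimmest member 13.9% were higher and 12.8% lower, but only 10 of these 21 genes were brighter than the median gene. The median log2 change of the 21 genes was 0.03 against -0.02 over all genes. Tspan18, known as a partner of the calcium channel subunit Orai1, stood at 7.67, 7.99, 7.49 and 7.54 in controls and 6.61, 6.76, 6.25 and 6.03 in knockouts. The groups did not overlap, and its log2 change of -1.26 ± 0.16 (SE, limma adjusted p = 0.000574) exceeded in size that of any member. In the RefSeq gene order Tspan18 lies directly beside Cd82, whose change was -0.0062. Tspan14, one of the tetraspanins that escort the protease Adam10 to the surface, had a log2 change of -0.57 ± 0.11 (SE, limma adjusted p = 0.00709), and Tspan13 one of -0.46 ± 0.10 (adjusted p = 0.0116). Both were lower in each knockout array than in any control, and both calls were lost without control 1, control 3 and knockout 2 (0.0506 and 0.0514).

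Tspan17, of the same Adam10-escorting branch as Tspan14, had a log2 change of 0.44 ± 0.11 (SE, limma adjusted p = 0.0256), from 5.47 ± 0.16 (SD, n = 4) to 5.91 ± 0.17. That call was lost without control 2 (0.0793), control 4 (0.0774), knockout 3 (0.0546) or knockout 4 (0.0657). The other members of that branch, named for their kinship after their values had been seen, were Tspan5, Tspan10, Tspan15 and Tspan33, which had log2 changes of 0.22, 0.12, 0.14 and 0.36 and were not called. Adam10 itself, at -0.13 ± 0.11 (SE), was not called either (limma adjusted p = 0.595). Tspan32, named for its place directly beside Cd81 in the gene order, had a log2 change of 0.38 (adjusted p = 0.136). Cd151 and Tspan4 are separated by a single protein-coding gene, Polr2l, and their log2 changes were 0.30 and 0.12.

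**Figure D3:**
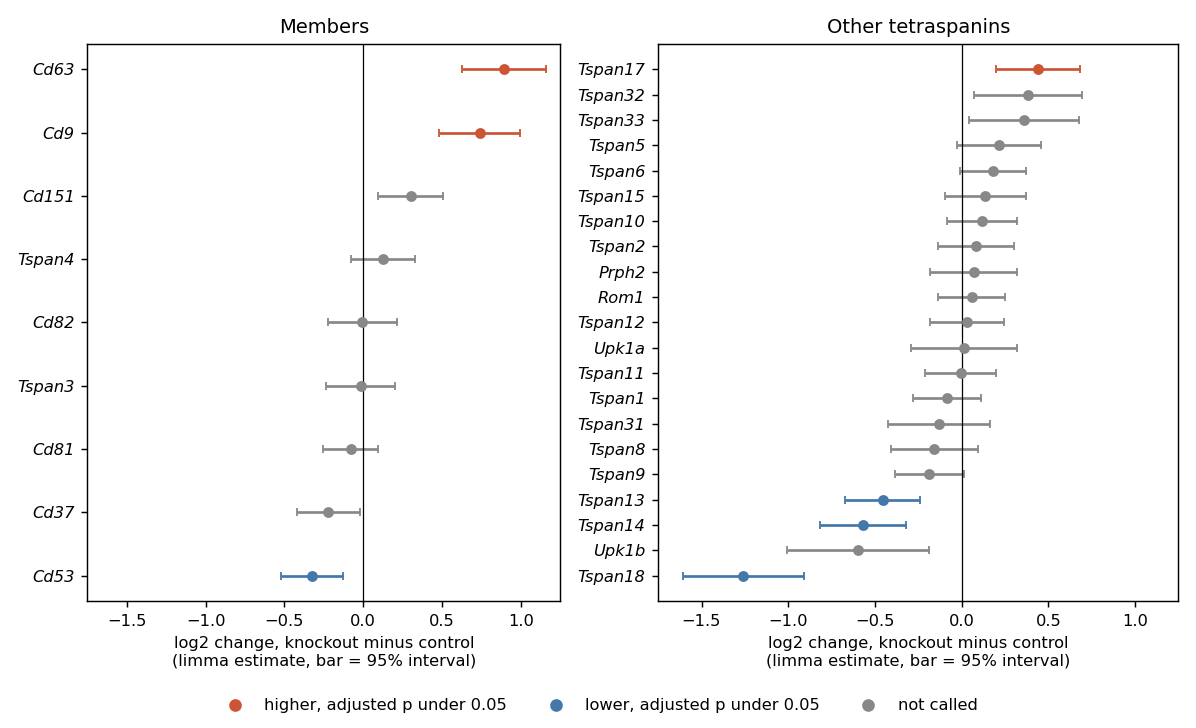
Log2 change, knockout minus control (horizontal axis, limma estimate with its 95% interval), of the 9 measured members and of 21 other tetraspanin genes (vertical axis, ordered by change); colours mark genes called higher, called lower or not called. Cd63 and Cd9 lie highest among the members at 0.89 and 0.74, and Tspan18 lies lowest of both panels at -1.26.

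Of 35 measured genes for known binding partners of tetraspanins 7 were higher and 3 lower, or 20% and 8.57%, against 5.38% and 4.17% of all genes and 13.9% and 12.8% of the genes at least as bright as the dimmest member. The partner list also holds genes dimmer than that member, such as Clec7a (mean 7.33) and Vcam1 (6.88), so it is not matched to the last background in brightness. The partner genes had a median log2 change of 0.10 against -0.02 over all genes. Clec7a, the beta-glucan receptor dectin-1, which Cd37 binds, stood between 6.34 and 6.92 in controls and between 7.87 and 8.58 in knockouts, a log2 change of 1.59 ± 0.16 (SE, limma adjusted p = 0.000288). Vcam1, an adhesion receptor of integrins, changed by 1.48 ± 0.18 and the fibronectin-binding integrin subunit Itga5 by 0.93 ± 0.10 (adjusted p = 0.000450 and 0.000294). Hbegf, the growth factor that Cd9 holds at the membrane, went the other way, from 6.83 ± 0.12 (SD, n = 4) to 5.98 ± 0.18, a log2 change of -0.85 (adjusted p = 0.000571). The groups did not overlap for any of these 4 genes. The direct partners of Cd9 and Cd81, Igsf8 and Ptgfrn, were not called, at 0.37 ± 0.16 and 0.25 ± 0.12 (SE, adjusted p = 0.214 and 0.280), nor was the integrin subunit Itgb1, at -0.02 ± 0.09; these 3 and Adam10 were picked for their known binding after values had been seen. Without control 2 the 7 higher partner genes became 4. Clec7a, Vcam1, Itga5 and Hbegf, like Tspan18 and Sdc3, were called under all 18 alternatives, those without control 3 and knockout 2 included.

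Endosome and exosome genes, among which Cd63 travels, had 6 of 39 higher and 1 lower. That is 15.4% and 2.56%, against 5.38% and 4.17% of all genes. Their median log2 change was 0.01, against -0.02 over all genes. Among genes at least as bright as the dimmest member the shares were 13.9% and 12.8%. Of the listed genes 36 were brighter than the median gene. Some, such as Sdc3 (mean 8.09) and Sdc4 (7.34), were dimmer than the dimmest member, so the list is not matched to that background in brightness. Sdc3 and Sdc4, syndecans whose cytoplasmic tails bind the exosome adaptor syntenin, had log2 changes of 1.69 ± 0.21 and 0.60 ± 0.14 (SE, limma adjusted p = 0.000574 and 0.0196). The call of Sdc4, whose groups overlapped, was lost without control 1 (0.0635), control 2 (0.0695), knockout 3 (0.0598) or knockout 4 (0.0522). Lamp1, a main protein of the lysosomal membrane, rose from 11.43 ± 0.09 (SD, n = 4) to 11.81 ± 0.08, with an adjusted p of 0.0143 that became 0.128 after quantile normalization, 0.0529 without control 1, 0.0554 without knockout 3 and 0.0831 without control 1, control 3 and knockout 2. Vps37a, of the ESCRT machinery that forms vesicles inside endosomes, fell by 0.61 on the log2 scale (adjusted p = 0.0124), a call lost without control 1, control 3 and knockout 2 (0.123). The 4 measured subunits of AP-3, singled out after their values had been seen, were not called, with log2 changes from -0.22 for Ap3m1 to 0.23 for Ap3s1. The 6 higher genes became 1 without control 1 or knockout 3, 2 without control 2 or knockout 4, and 3 without control 4 or without control 1, control 3 and knockout 2.

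**Figure D4:**
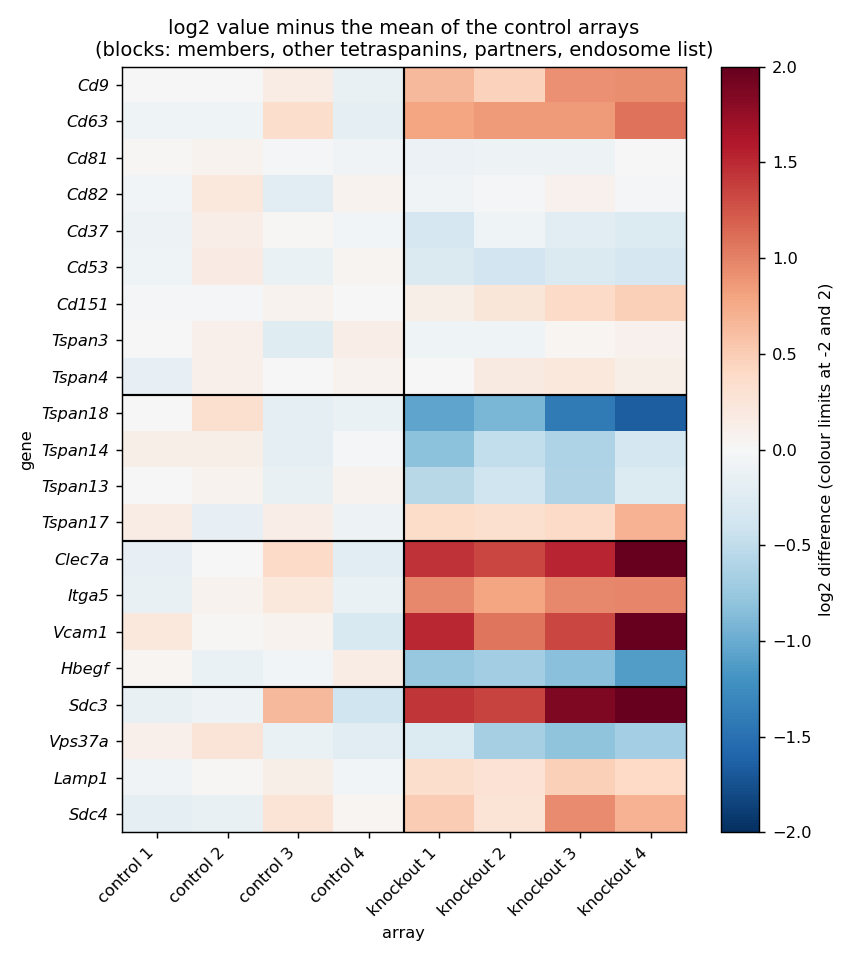
Log2 value minus the mean of the 4 control arrays (colour, limited at both ends of the scale bar) for the 9 measured members and for the 4 genes of each other list with the lowest adjusted p (vertical axis, blocks split by lines) in each of 8 arrays (horizontal axis). Cd9 and Cd63 are above the control mean in all 4 knockout arrays, Tspan18, Tspan14, Tspan13, Hbegf and Vps37a are below it, and control 3 is the control array with the highest Cd9 and Cd63.

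The profiles nearest to Cd9 and Cd63 over the 8 arrays were not those of tetraspanins. Likeness was measured as the root mean square difference of log2 values after each gene was centred on its own mean, among 9968 other genes brighter than the median. Nearest to Cd9 were Selenow, Eif3h, Rpl7, Pigs and Eprs, at 0.06 to 0.07 log2 units. Nearest to Cd63 were Rplp0, Rpsa, Cadm1, Rps28 and Rps20, at 0.06 to 0.08. The difference between the groups was not removed, so genes with a change of like size lie near in this measure. The log2 changes of these nearest genes ran from 0.67 for Pigs to 0.94 for Rplp0. Likeness within the groups was not tested. Cd9 and Cd63 were 0.16 apart. Among genes brighter than the median, 257 were nearer to Cd9 than Cd63 was, a count that includes Cd9 itself.

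Summed markers of some other cells differed between the groups without overlap (border macrophages, platelets, oligodendrocytes, astrocytes and endothelium), and those of monocytes and neutrophils, lymphocytes and neurons overlapped. The summed linear level of 10 border macrophage markers was 1371 to 2013 in controls and 928 to 1312 in knockouts, with 5 lower and 2 higher. For 5 platelet markers it was 748 to 862 and 409 to 582, with 2 lower, 1 of which, Pf4, is also among the border macrophage markers. For 8 monocyte and neutrophil markers it was 2965 in control 1 and 11333 to 17931 in the other controls, and 6667 to 11923 in knockouts, with 1 of 8 lower. The 7 lymphocyte markers summed to 509 to 752 and 657 to 996 with none called (limma, 0 of 7; 1 of 7 had an unadjusted p under 0.05). Sums for oligodendrocyte markers were 556 to 626 and 635 to 705 (1 of 7 higher, Mbp), for astrocyte markers 764 to 854 and 855 to 934 (1 of 7 higher, Gfap), for endothelial markers 346 to 429 and 449 to 655 (1 of 8 higher, Flt1) and for neuron markers 314 to 350 and 339 to 377 (limma, 0 of 8, of which 1 had an unadjusted p under 0.05). Mbp, Gfap, Flt1 and Pf4 were named after their values had been seen. A single gene can weigh heavily in such sums, and the markers of a list did not move together. The only called genes of the endothelial, oligodendrocyte and astrocyte lists, Flt1, Mbp and Gfap, had log2 changes of 1.99, 0.59 and 1.28. No other marker of these lists was called, so the sums do not show that a list rose as a whole. Only 3 of 8 endothelial, 4 of 7 oligodendrocyte and 4 of 7 astrocyte markers had a positive log2 change. Their median log2 changes were -0.04, 0.02 and 0.26. The astrocyte sums of the groups nearly met, at 854.16 in the highest control and 854.74 in the lowest knockout. The summed level of the microglial identity genes was 35834 to 40394 in controls and 27242 to 30429 in knockouts, with no overlap. No value is at 0 on this scale, and the part of other cells in the changes of Cd9, Cd63 and Cd53 was not tested.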

How the data were processed

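RNA of sorted microglia (5.775 ng per sample) was amplified with the NuGEN Pico system and hybridised, 1 array per sample, per the labels' protocols. The authors deposited RMA values on a log2 scale, 1 per probe set and array, per the submitters' processing notes; no version of RMA is named, and the base was read from the range, 2.04 to 13.99. RMA equalises the arrays, which hides any shift common to all transcripts. Of 28874 probe sets 21789 had 1 symbol in the platform annotation, giving 19938 genes (the probe set with the highest mean per gene). Groups were compared with limma 3.58.1 (lmFit, eBayes, two-sided, no covariate) in R 4.3.3, with Benjamini-Hochberg adjustment over all genes. SEs and 95% intervals of single genes are from that fit, whose code was tested on simulated data. Differences between 2 members within arrays had an exact permutation test, and their SEs come from the SDs of the 2 groups. Named genes were the members, up to 4 called genes per other list by adjusted p, and the 5 nearest profiles of Cd9 and Cd63; other names are marked where they occur. Members and lists were chosen with earlier results of these data known. Alternatives were a filter on dim genes, 3 scalings, other probe set and variance choices, the replicate number as a block, arrays left out, and an adjusted p under 0.01. Figures used matplotlib 3.10.9.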

Additional observations from a re-analysis of the deposited data

Results flagged for a closer look

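Over 49 of the genes named in the text, the Y-linked genes left out, 98 groups of 4 arrays were checked. In 7 of them 1 array's gap to the nearest other was above Dixon's 95% critical share of the group's range. Chance gives about 1 in 20 for independent groups. Xist was named because of control 1, and the nearest profiles were picked for following Cd9 or Cd63 on these arrays. The count can therefore not be judged against that rate. Control 3 was the highest control for Selenow, at 9.61 (nearest other 9.41), Rps20, at 11.89 (11.38), and Flt1, at 6.53 (5.44). Control 1 was the lowest control for Xist, at 6.80 (10.82), and for Tspan33, at 6.07 (6.21). Knockout 2 was the lowest knockout for Itga5, at 7.57 (7.74), and knockout 4 the highest for Ptgfrn, at 7.58 (7.20). No member had such an array in either group.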

How the results depend on the processing

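Cd9 and Cd63 were called higher under each of 18 alternatives; the 2 higher members became 3, with Cd151, without dim genes and without knockout 1. The 1 lower member, Cd53, became 0 with arrays centred on their medians, with the replicate number as a block (adjusted p = 0.0825), without control 3 and knockout 2, without control 1 as well, and at an adjusted p under 0.01; with single arrays left out it was 0 to 1. Cd82 turned positive after cyclic loess (0.030) and with array weights (0.0087), and ran from -0.080 to 0.062 with single arrays left out; Tspan3 turned positive after cyclic loess (0.012) and ran from -0.096 to 0.028. Over all genes 1073 higher and 832 lower became 649 and 494 without control 1, control 3 and knockout 2, and 567 and 358 at an adjusted p under 0.01; with single arrays left out the lower genes were 507 to 960. The 1 higher other tetraspanin, Tspan17, became 0 without dim genes, where its own mean of 5.69, under the median of 6.24, took it out of the test. It also became 0 at 0.01, and was 0 to 1 with arrays left out. The 3 lower ones became 1 without control 1, control 3 and knockout 2. The 7 higher partner genes became 4 at 0.01, and were 4 to 8 with single arrays left out. The 6 higher endosome genes became 3 without control 1, control 3 and knockout 2 and 1 at 0.01, and 1 to 8 with single arrays left out; the 1 lower gene became 0 under both. Apart from fewer samples, the stricter threshold and the filtering out of Tspan17, the cause was not tested. The replicate block changed no other call among the members; deviations of same-numbered arrays correlated at -0.06 to 0.16 over all genes, so the numbers were not taken to pair samples.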

Other observations

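Tspan3 had the same value, 8.71, in knockout 1 and knockout 2 to the last digit deposited. Such identical values on 2 or more arrays occurred for 187 of 19938 genes, or 0.938%.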
